A study of Arabidopsis thaliana with 8 samples.

Results

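The genes described here are 43 genes of meiosis and recombination in Arabidopsis thaliana. They were chosen by gene identifier from what they are known to do in meiosis. No rule on measured values was used, but earlier results of these data were known. These 43 are among the 25738 genes with a value above 0 in any library. RNA of floral buds from stage 9 to stage 13, taken from the primary inflorescence of plants grown in long days, was sequenced in 4 genotypes with 2 libraries each. The wild type was the accession Col-0, and the single mutants elf6, jmj13 and ref6 each carried a T-DNA insertion in the Col-0 background, with no other agent or transgene named. ELF6, JMJ13 and REF6 encode demethylases that remove methyl groups from lysine 27 of histone H3, a mark of silenced genes. The allele names given with the data and in the study's methods differ for elf6, so the elf6 allele is not stated here, and the ref6 insertion is described in the study as leaving the catalytic domain in place. The labels do not say whether the replicates of a genotype came from separate plants, and all p-values then measure only the spread between these libraries. Whole buds were used, so that fewer meiocytes and less RNA per meiocyte cannot be told apart.

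Meiosis reduces the chromosome number in the cells that give rise to pollen and to the embryo sac. SPO11 proteins cut the DNA, nucleases trim the cut ends, and recombinases such as DMC1 guide the ends into the homologous chromosome. Chromosomes are meanwhile built on a protein axis and zipped together by ZYP1, and a group of proteins first described in yeast turns some of the joined molecules into crossovers. In Arabidopsis anthers male meiosis takes place at about stage 9, and the ovules follow later, so that only few cells of a bud are in meiosis at any time.

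The sequences of close copies matter here, because reads from a stretch that the copies share cannot be told apart. ZYP1A and ZYP1B, which lie next to each other on chromosome 1 and face away from each other (7859630 to 7865263 and 7867067 to 7872715 in TAIR10.1), are identical at 93.0% of 2556 aligned coding bases. Their coding sequences from base 92 to base 151, read from the RefSeq annotation of TAIR10.1, differ at 4 places, shown in capitals.
ZYP1A: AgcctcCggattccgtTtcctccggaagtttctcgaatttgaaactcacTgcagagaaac
ZYP1B: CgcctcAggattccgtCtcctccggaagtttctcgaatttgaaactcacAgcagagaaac
BRCA2A and BRCA2B are identical at 96.1% of 3427 aligned coding bases.

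A search of the 300 bases before each annotated start, on both strands, found a motif of E2F factors in 7 of the 43 promoters (16.3%). The motif was spelled TTTCCCGC, TTTCGCGC, TTTGCCGC or TTTGGCGC, and E2F factors are regulators of genes used in DNA replication and repair. Among all 27443 protein-coding genes of the annotation, 1.57% held the motif in the same window. The windows are shown because they hold a sequence feature that these 7 genes share beside their function. Each is given 5′ to 3′ on the gene's strand with the motif in capitals, which reads as its reverse complement where the match is on the other strand.
PRD1: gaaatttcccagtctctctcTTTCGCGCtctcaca
COM1: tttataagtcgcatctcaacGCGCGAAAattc
BRCA2A: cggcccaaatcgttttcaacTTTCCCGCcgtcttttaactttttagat
BRCA2B: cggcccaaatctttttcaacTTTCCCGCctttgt
ASY3: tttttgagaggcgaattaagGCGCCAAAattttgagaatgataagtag
ZYP1A: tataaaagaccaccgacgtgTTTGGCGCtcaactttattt
TAM: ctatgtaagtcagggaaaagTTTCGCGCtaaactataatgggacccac
In TAIR10.1 these windows lie at chr4:8178295-8178329 (PRD1, plus strand), chr3:19326003-19326034 (COM1, plus strand), chr4:10529-10576 (BRCA2A, minus strand), chr5:241107-241140 (BRCA2B, minus strand), chr2:19304301-19304348 (ASY3, minus strand), chr1:7865264-7865303 (ZYP1A, minus strand) and chr1:29084399-29084446 (TAM, minus strand). The windows of BRCA2A and BRCA2B are nearly the same, as are the genes themselves. All 7 genes were tested, and in jmj13 against Col-0 their log2 fold changes ran from -0.29 for ZYP1A to 1.13 for ASY3. The REF6 zinc fingers are known to bind CTCTGCTC, CTCTGCTT, CTCTGTTC and CTCTGTTT, and 2 of the 43 promoters (4.65%) held one of these, against 6.87% of all 27443. They belong to PHS1 and ASK1 and are shown in the same way, at chr1:3558283-3558330 (PHS1, plus strand) and chr1:28516411-28516458 (ASK1, plus strand).
PHS1: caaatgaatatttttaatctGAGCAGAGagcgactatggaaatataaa
ASK1: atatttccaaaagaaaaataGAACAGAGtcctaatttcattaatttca
In ref6 against Col-0 the log2 fold change of PHS1 was 0.70 with a standard error of 0.88, and that of ASK1 was 0.09 with a standard error of 0.26. A match of letters is not a binding site, and no binding was measured in these libraries.

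The libraries were of like depth, with 11373306 to 12048319 expected counts, the authors' estimate of the reads of each gene. Col-0 replicate 1 and ref6 replicate 1 stood apart from the other 6 libraries: their 50 most abundant genes took 29.3% and 30.5% of the counts, against 18.4% to 21.4%. The TMM factor, which corrects a library size for such unequal composition, was 0.739 and 0.742 in these libraries and 1.01 to 1.22 in the others. Of the targeted genes, ELF6 had 68 and 88 counts in Col-0 and 18 and 28 in elf6. JMJ13 had 22 and 51 counts in Col-0 and 45 and 45 in jmj13, and REF6 had 90 and 103 in Col-0 and 130 and 119 in ref6, so that gene totals check only the elf6 label.

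Most of the 43 genes were expressed at low levels. On the TPM scale, which corrects for gene length and sets every library to the same total, 19 genes had a mean over the 8 libraries below 1, 21 lay between 1 and 5, and 3 lay above 5. The last were ASK1 with 353 TPM, DMC1 with 7.83 and OSD1 with 6.03. ASK1 (AT1G75950) encodes a subunit of SCF ubiquitin ligases that is used throughout the plant, and by itself gave 63.6% to 76.7% of the genes' counts in a library. The other 42 genes together had 905 to 1944 counts per library. By its mean TPM, ASK1 stood above 98.1% of all listed genes, DMC1 above 61.8% and OSD1 above 56.6%.

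**Figure D1:**
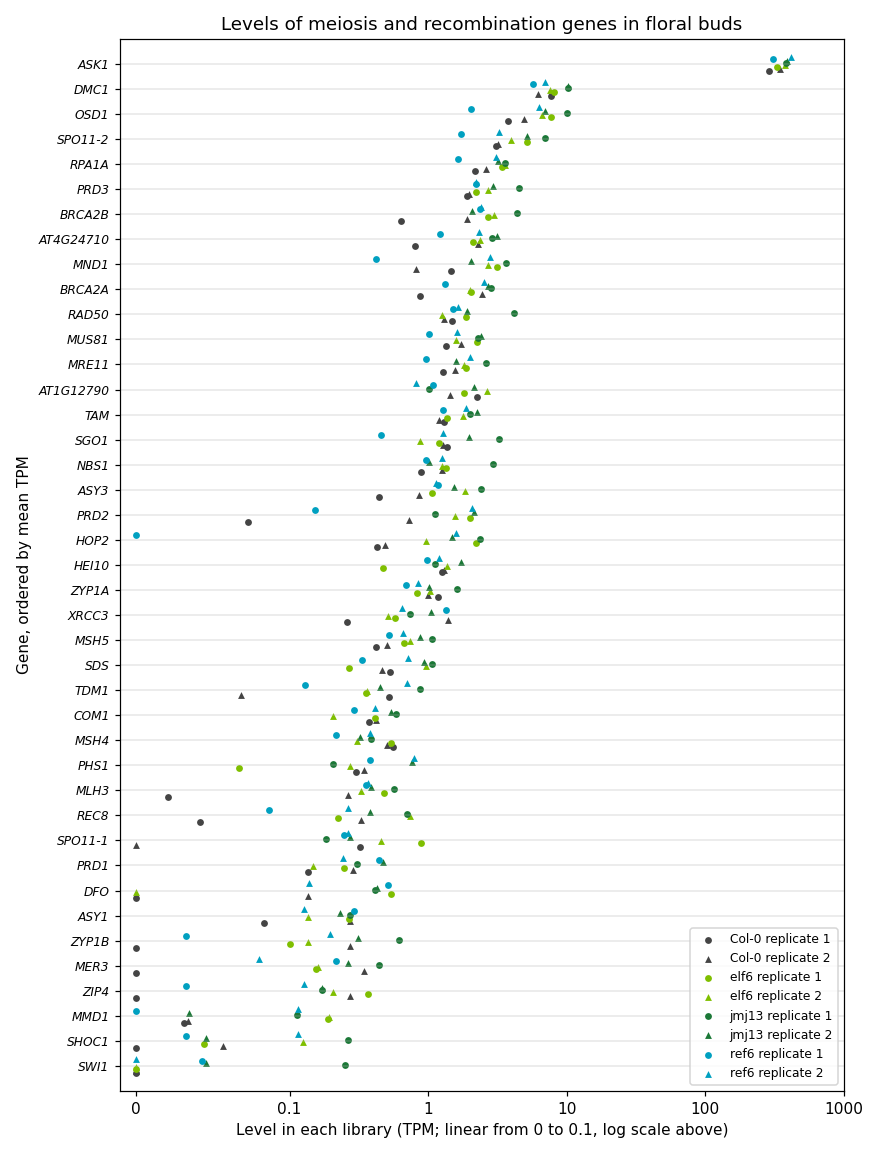
Level of 41 of the 43 genes in each of the 8 libraries, in TPM on an axis that is linear from 0 to 0.1 and logarithmic above, with genes ordered by their mean. ASK1 stands alone at 353 TPM, 19 genes have a mean below 1 TPM, and the points of Col-0 replicate 1 and ref6 replicate 1 often lie to the left of the others.

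Of the 43 genes, 34 passed the filter on low counts and were tested, as were 19939 genes in all. The 9 that were not tested are SPO11-1, DFO, SWI1, ASY1, ZYP1B, SHOC1, ZIP4, TDM1 and MMD1. They include SPO11-1 and ASY1, which carry out steps that every meiocyte needs. No fold change is given for these 9 genes.

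Differential expression was called at an adjusted p under 0.05 with a change of at least 2-fold, by edgeR's quasi-likelihood test over all tested genes. None of the 34 genes was called in any of the 6 comparisons between genotypes. The lowest adjusted p among them was 0.447 in elf6 against Col-0, 0.425 in jmj13 against Col-0, 0.999 in ref6 against Col-0, 0.521 in elf6 against jmj13, 0.463 in elf6 against ref6 and 0.499 in jmj13 against ref6. Few genes of any kind were called: 0.12% of all tested genes in elf6 against Col-0, 0% in jmj13 against Col-0 and 0.00502% in ref6 against Col-0, and 0.772%, 0.266% and 0.0301% in the other 3 comparisons in the same order. A count of 0 among 34 genes lies close to these shares and is not a result about meiosis genes. By DESeq2's test none of the 34 was called either.

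At an unadjusted p under 0.05, again by edgeR's test, 0 of the 34 genes passed in elf6 against Col-0, where 12.4% of all genes did. In jmj13 against Col-0 it was 1 gene (ASY3) beside 11.2%, and in ref6 against Col-0 it was 0 beside 4.67%. In elf6 against jmj13 it was 1 gene (SGO1) beside 8.78%, in elf6 against ref6 0 beside 11.7%, and in jmj13 against ref6 2 genes (SPO11-2 and SGO1) beside 8.97%. Leaving out 1 library moved these counts to between 0 and 4 in elf6 against Col-0, 0 and 7 in jmj13 against Col-0 and 0 and 5 in ref6 against Col-0. It moved them to between 0 and 2 in elf6 against jmj13 and 0 and 6 in elf6 against ref6 and in jmj13 against ref6. The highest counts came without Col-0 replicate 2 or ref6 replicate 2, apart from the 2 of elf6 against jmj13, which came without jmj13 replicate 2. The 95% interval of a log2 fold change reached 0.58 to either side for ASK1 and 2.32 for the least precise gene in jmj13 against Col-0, with a median of 1.04. A change of 2-fold in a typical member was therefore not detectable with these libraries, and the test does not show that the genes kept their level.

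**Figure D2:**
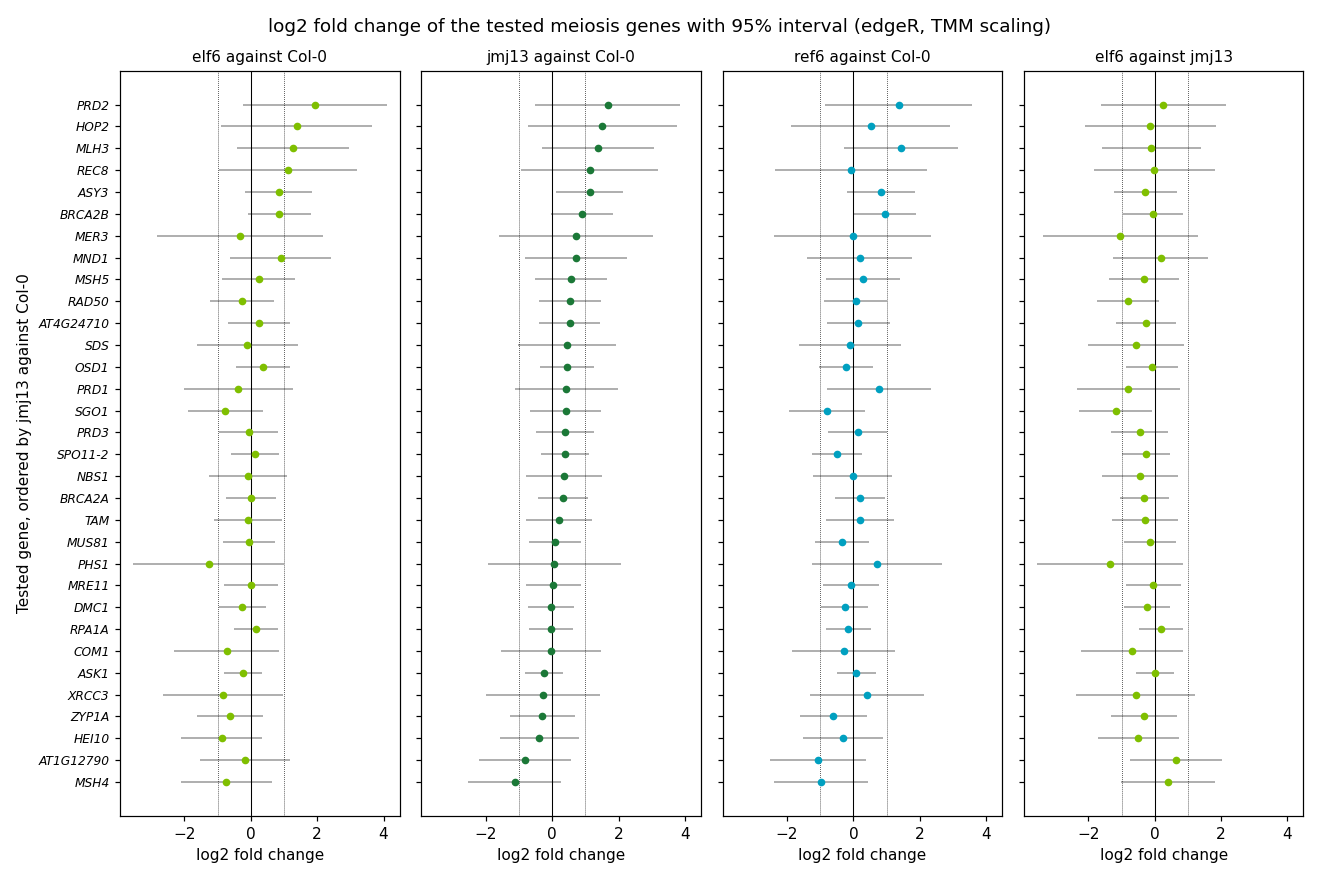
log2 fold change of 32 of the 34 tested genes in 4 comparisons, with 95% intervals as grey bars and dotted lines at a 2-fold change, in the order of jmj13 against Col-0. In jmj13 against Col-0, 23 of the 32 points lie above 0, in elf6 against jmj13 26 of 32 lie below 0, and most intervals cross 0 in every panel.

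No single gene passed the test, and the list is described here by the sign of its fold changes and its median. In jmj13 against Col-0 the log2 fold change was above 0 for 25 of the 34 genes (73.5%), beside 53.4% of all genes, and their median was 0.40 beside 0.04. In elf6 against Col-0 it was above 0 for 16 genes (47.1% beside 52.3%), with a median of -0.05 beside 0.03. In ref6 against Col-0 it was above 0 for 18 genes (52.9% beside 48%), with a median of 0.08 beside -0.02. The comparisons with Col-0 share its libraries. The distance to the median of all genes was 0.35 in jmj13, -0.08 in elf6 and 0.10 in ref6. Its SD between replicates, given for all genotypes together, was 0.11. The Col-0 replicates were further apart than those of the mutants. Their log2 ratio, replicate 1 to replicate 2, had a median of 0.29 over the 34 genes beside -0.01 over all genes. In jmj13 it was 0.15 beside 0.01, in elf6 0.04 beside -0.004 and in ref6 -0.002 beside -0.03. The Col-0 replicates thus differed by nearly as much as jmj13 did from Col-0. The distance to the median of all genes rested on single libraries. In jmj13 it was 0.09 without Col-0 replicate 2 and 0.18 without jmj13 replicate 1, and in ref6 it turned to -0.11 without ref6 replicate 2 and to -0.07 without Col-0 replicate 2. Without Col-0 replicate 1 and ref6 replicate 1, which stood apart, it turned to 0.17 in elf6 and was 0.39 in jmj13. The filter then kept 38 genes of the list rather than 34, so that the sets of genes differ too.

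At least 2-fold higher than in Col-0 were 4 of the 34 genes in elf6 (HOP2, MLH3, REC8 and PRD2, beside 4.68% of all genes), 5 in jmj13 (the same with ASY3, beside 3.39%) and 2 in ref6 (MLH3 and PRD2, beside 2.43%). At least 2-fold lower was 1 gene in each mutant: PHS1 in elf6 (beside 6.65%), MSH4 in jmj13 (beside 6.67%) and AT1G12790 in ref6 (beside 3.84%). In elf6 against jmj13 0 were higher (beside 4.84%) and 3, PHS1, SGO1 and MER3, lower (beside 2.83%). HOP2, MLH3, REC8 and PRD2 had at most 11 counts in either Col-0 library, and none of these differences passed the test.

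The comparison of elf6 with jmj13 does not use Col-0. Here 7 of the 34 genes (20.6%) lay above 0 beside 46.2% of all genes, and the median was -0.28 beside -0.03. Without jmj13 replicate 1 the distance between these medians fell in size from -0.25 to -0.12. In jmj13 against ref6 26 genes (76.5%) lay above 0 beside 52.9%, with a median of 0.26 beside 0.04, and in elf6 against ref6 16 genes (47.1%) beside 51.3%, with a median of -0.02 beside 0.01. These figures describe 34 genes in the same 8 libraries, and no test of the list was made.

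The sign of the list's median depended on the scaling in elf6 against Col-0 and in elf6 against ref6. With library size alone in place of TMM, the median of all genes moved to 0.34 in elf6 against Col-0, 0.48 in jmj13 against Col-0, 0.28 in elf6 against ref6 and 0.42 in jmj13 against ref6. The list's own median was then 0.28, 0.85, 0.25 and 0.67 in the same order. It kept its sign in elf6 against jmj13, at -0.40, and in ref6 against Col-0, at 0.14. The meiosis genes above 0 then numbered 25 of 34 in elf6 against Col-0 (73.5%, beside 73.6% of all genes) and 32 of 34 in jmj13 against Col-0 (94.1% beside 79.2%). Against ref6 they numbered 26 of 34 in elf6 (76.5% beside 71.7%) and 32 of 34 in jmj13 (94.1% beside 80.7%). Levels in TPM, which use the library total, carry this shift, whereas the CPM values given next, counts relative to the library size, are scaled by TMM.

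SPO11-1, SPO11-2, PRD1, PRD2, PRD3 and DFO are needed to form the DNA breaks, and their levels differed widely. SPO11-1 (AT3G13170), which with SPO11-2 (AT1G63990) cuts the DNA, had 4 and 0 counts in Col-0, 10 and 5 in elf6, 2 and 3 in jmj13, with ref6 at 3 and 3. SPO11-2 was higher than SPO11-1 per length in 8 of 8 libraries, with a ratio of their mean TPM of 12.3. SPO11-2 stood at 6.75 and 4.66 CPM in Col-0, 7.03 and 5.35 in elf6, 8.40 and 6.52 in jmj13, with ref6 at 3.62 and 4.42. Both ref6 libraries were thus the lowest, and they did not overlap with those of jmj13. SPO11-2 was 0.88 log2 units higher in jmj13 than in ref6 with a standard error of 0.34 (adjusted p = 0.499, edgeR). It was named after its values were seen. Of its 50-base stretches, 23.9% are shared with other genes, the most with AT1G63980. AT1G63980 overlaps it on the other strand of chromosome 1 and AT1G08647 on the same strand.

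PRD2 (AT5G57880), which is required for the DNA breaks, had the highest fold change of the list in elf6 and in jmj13 against Col-0. It stood at 0.11 and 0.95 CPM in Col-0, 2.45 and 1.92 in elf6, 1.22 and 2.43 in jmj13, with ref6 at 0.23 and 2.56. Both libraries of elf6 and of jmj13 lay above both of Col-0, while the ref6 libraries spanned nearly the whole range. The log2 fold change against Col-0 was 1.93 with a standard error of 0.98 in elf6 (adjusted p = 0.456), 1.67 with 0.98 in jmj13 (adjusted p = 0.515) and 1.36 with 1.00 in ref6 (adjusted p = 0.999). The ref6 value turned to -1.29 without ref6 replicate 2, and without Col-0 replicate 1 and ref6 replicate 1 the elf6 and jmj13 values were 1.20 and 0.91. PRD2 (chromosome 5, 23443962 to 23447244, 11 exons) overlaps AT5G57885 and AT5G57887 on the same strand. It shares 19.99% of its 50-base stretches with other genes, the most with AT5G57887. AT5G57887 had its highest counts, 272 and 311, in Col-0 replicate 1 and ref6 replicate 1, where PRD2 had its lowest, and 88.8 to 170 in the other 6 libraries. How reads were divided between these genes was not tested. PRD1, PRD3 and DFO, also needed for breaks, had means of 0.28, 2.59 and 0.27 TPM. PRD3, the most abundant of them, had log2 fold changes against Col-0 of -0.06 in elf6, 0.40 in jmj13 and 0.13 in ref6.

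The group for processing of broken ends held 5 genes, PHS1 among them. Of these 5, 1 had a log2 fold change above 0 in elf6 against Col-0 (beside 52.3% of all genes), 4 in jmj13 (beside 53.4%) and 2 in ref6 (beside 48%). PHS1 was counted above 0 in jmj13, at 0.07, and in ref6, at 0.70. MRE11, RAD50 and NBS1, subunits of a nuclease complex, had log2 fold changes against Col-0 of 0.00, -0.27 and -0.09 in elf6 and 0.04, 0.53 and 0.35 in jmj13. RAD50 in jmj13 rested on 1 library, with 13.4 CPM in replicate 1 and 6.37 in replicate 2 beside 8.69 and 5.09 in Col-0. So did NBS1 in jmj13, with 3.95 CPM in replicate 1 and 1.44 in replicate 2 beside 2.17 and 2.07 in Col-0. PHS1 (AT1G10710), which in maize and Arabidopsis acts in the pairing of homologous chromosomes, was the lowest of the list in elf6. It stood at 0.57 and 0.43 CPM in Col-0, 0.08 and 0.32 in elf6, 0.22 and 0.83 in jmj13, with ref6 at 0.68 and 0.93. Both elf6 libraries lay below both of Col-0, but they held only 1 and 4 counts. In elf6 its log2 fold change was -1.28 with a standard error of 1.03 against Col-0 (adjusted p = 0.645) and -1.34 with 0.99 against jmj13 (adjusted p = 0.887). When 1 library was left out these values ran from -2.50 to -0.62 and from -2.57 to -0.11. COM1, a partner of the nuclease complex, had 4 to 11 counts per library.

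Of the strand exchange genes, DMC1 was the most abundant. DMC1 (AT3G22880, chromosome 3, 8097678 to 8100932, 15 exons), the recombinase specific to meiosis, stood at 13.8 and 7.51 CPM in Col-0, 9.16 and 8.55 in elf6, 10.1 and 10.6 in jmj13, with ref6 at 9.83 and 7.84. The Col-0 libraries spanned the values of all 3 mutants. Its log2 fold change against Col-0 was -0.26 in elf6 (95% interval -0.97 to 0.44), -0.03 in jmj13 (-0.73 to 0.67) and -0.27 in ref6 (-0.98 to 0.44). On the TPM scale DMC1 was 7.69 and 6.24 in Col-0 and 10.1 and 10.2 in jmj13, a difference in the other direction that TMM scaling did not retain.

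HOP2 (AT1G13330) and MND1 (AT4G29170) form a complex that helps the recombinases. HOP2 stood at 0.57 and 0.43 CPM in Col-0, 1.82 and 0.80 in elf6, 1.72 and 1.14 in jmj13, with ref6 at 0 and 1.32. Both libraries of elf6 and jmj13 lay above both of Col-0, on 10 to 24 counts against 5 and 5. The log2 fold change against Col-0 was 1.38 with a standard error of 1.02 in elf6 (adjusted p = 0.611) and 1.51 with 1.01 in jmj13 (adjusted p = 0.553), and MND1 was at 0.89 and 0.71. BRCA2B (AT5G01630), which loads recombinases onto DNA, stood at 3.20 and 6.38 CPM in Col-0, 8.37 and 9.27 in elf6, 12.1 and 5.99 in jmj13, with ref6 at 11.3 and 7.45. Its log2 fold change against Col-0 was 0.86 in elf6, 0.90 in jmj13 and 0.94 in ref6, with standard errors of 0.43 in each, and adjusted p-values of 0.447, 0.460 and 0.999. Without Col-0 replicate 1 and ref6 replicate 1 the ref6 value was 0.22. Its copy BRCA2A (AT4G00020) was at 0.00, 0.32 and 0.20. Of BRCA2B, 17.8% of the 50-base stretches are shared with other genes, the most with BRCA2A. How reads were divided between the copies was not tested. XRCC3 (AT5G57450), which acts in repair by recombination, stood at 0.46 and 1.64 CPM in Col-0, 0.63 and 0.56 in elf6, 0.72 and 1.06 in jmj13, with ref6 at 2.26 and 0.70. The Col-0 libraries enclosed those of elf6 and jmj13, and the fold change of -0.85 in elf6 turned to 0.37 without Col-0 replicate 2.

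**Figure D3:**
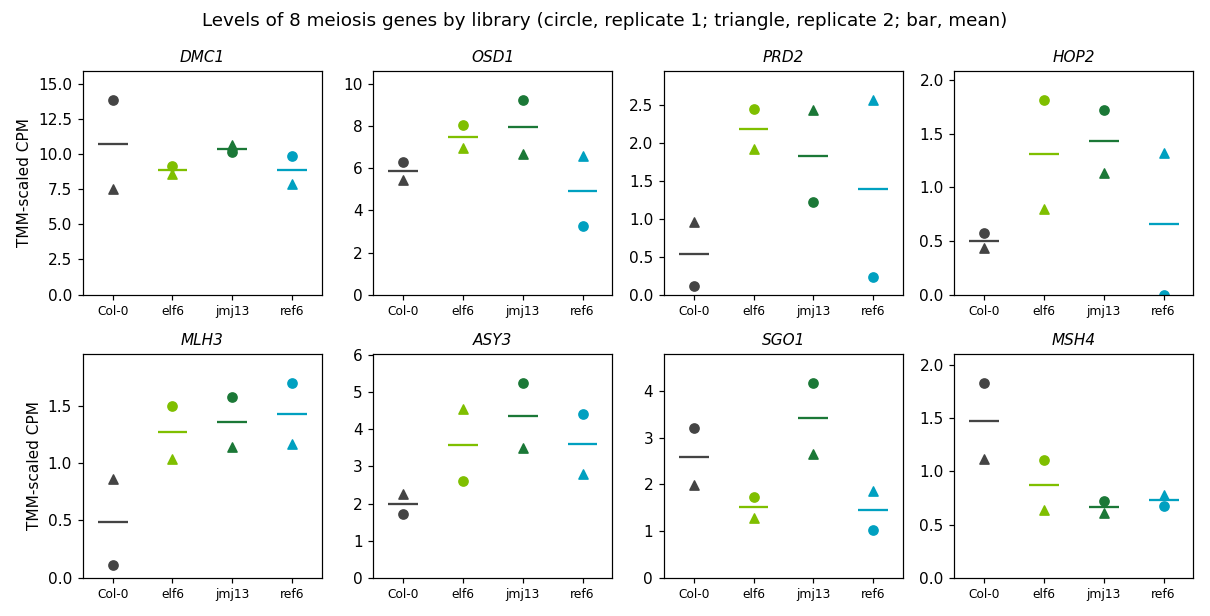
TMM-scaled CPM of 8 genes in each library, with circles for replicate 1, triangles for replicate 2 and a bar at the mean of each genotype. The Col-0 libraries of DMC1 span those of the mutants, the ref6 libraries of PRD2 lie at 0.23 and 2.56, and both jmj13 libraries of ASY3 lie above both of Col-0.

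Among genes of the chromosome axis and of cohesion, ASY3 and SGO1 came nearest to the threshold. ASY3 (AT2G46980, chromosome 2, 19299492 to 19304271, 8 exons), a coiled-coil protein of the axis, stood at 1.72 and 2.24 CPM in Col-0, 2.61 and 4.55 in elf6, 5.24 and 3.49 in jmj13, with ref6 at 4.41 and 2.79. The Col-0 libraries were the lowest of the 8, below all 6 mutant libraries. The log2 fold change against Col-0 was 0.84 with a standard error of 0.46 in elf6, 1.13 with 0.45 in jmj13 and 0.84 with 0.46 in ref6, and the adjusted p was 0.487, 0.425 and 0.999. Leaving out each library in turn gave 0.81 to 1.39 in jmj13. ASY3 was named after its values were seen, and the 3 comparisons share the same Col-0 libraries.

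SGO1 (AT3G10440, chromosome 3, 3245329 to 3249355, 17 exons), which protects cohesion at centromeres, stood at 3.20 and 1.98 CPM in Col-0, 1.74 and 1.28 in elf6, 4.16 and 2.65 in jmj13, with ref6 at 1.02 and 1.86. Both jmj13 libraries lay above those of elf6 and ref6, and they overlapped with Col-0. Its log2 fold change was -1.17 with a standard error of 0.50 in elf6 against jmj13 (adjusted p = 0.521) and 1.21 with 0.51 in jmj13 against ref6 (adjusted p = 0.534). In ref6 against Col-0 it was -0.80 with 0.52, and -0.10 without Col-0 replicate 1 and ref6 replicate 1.

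REC8 (AT5G05490), the cohesin subunit that holds sister chromatids together in meiosis, stood at 0.11 and 0.60 CPM in Col-0, 0.39 and 1.28 in elf6, 1.08 and 0.61 in jmj13, with ref6 at 0.23 and 0.47. The replicates of a genotype differed as much as the genotypes did. Its log2 fold change against Col-0 was 1.12 in elf6, 1.13 in jmj13 and -0.08 in ref6, with standard errors of 0.93, 0.93 and 1.04. ASY1 (AT1G67370), the axis protein whose loss prevents synapsis, had 2 and 6 counts in Col-0, 6 and 3 in elf6, 6 and 5 in jmj13, with ref6 at 7 and 3. SWI1, which acts early on sister cohesion, was listed above 0 in 3 of 8 libraries. AT4G24710, annotated as a pachytene checkpoint-like protein, had a mean of 2.14 TPM and log2 fold changes of 0.25, 0.53 and 0.15.

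ZYP1A (AT1G22260) and ZYP1B (AT1G22275) encode the protein that zips paired chromosomes together. ZYP1A stood at 4.57 and 2.59 CPM in Col-0, 2.05 and 2.56 in elf6, 3.52 and 2.27 in jmj13, with ref6 at 2.60 and 2.10. Col-0 replicate 1 was the highest, and the log2 fold change against Col-0 was -0.62, -0.29 and -0.60 with standard errors of 0.45, 0.44 and 0.45. ZYP1B had a value of 0 in Col-0 replicate 1 and at most 18.0 counts elsewhere, in jmj13 replicate 1. ZYP1A was higher per length in 8 of 8 libraries, with a ratio of mean TPM of 4.93. Stretches of 50 bases shared with other genes make up 8.54% of ZYP1A and 5.31% of ZYP1B, the most with the other copy in each case. ZYP1A also overlaps AT1G22250 on the other strand.

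Of the crossover genes, MSH4 had fold changes below 0 and MLH3 above 0 in all 3 mutants, both at low counts and neither past the test. MSH4 (AT4G17380), which with MSH5 (AT3G20475) stabilises joined DNA molecules, stood at 1.83 and 1.12 CPM in Col-0, 1.11 and 0.64 in elf6, 0.72 and 0.61 in jmj13, with ref6 at 0.68 and 0.78. The Col-0 libraries were the highest of the 8. Its log2 fold change against Col-0 was -0.74 in elf6, -1.13 in jmj13 and -0.99 in ref6, with standard errors of 0.62, 0.63 and 0.64 and adjusted p-values of 0.663, 0.50 and 0.999. Without Col-0 replicate 1 and ref6 replicate 1 it was -0.77 in jmj13 and -0.53 in ref6. MSH5, its partner, went the other way, at 0.24, 0.56 and 0.28. MLH3 (AT4G35520), which acts in the resolution of crossovers, stood at 0.11 and 0.86 CPM in Col-0, 1.5 and 1.04 in elf6, 1.58 and 1.14 in jmj13, with ref6 at 1.70 and 1.16.

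All 6 mutant libraries of MLH3 lay above both Col-0 libraries. Against Col-0 the log2 fold change was 1.27, 1.37 and 1.43 in elf6, jmj13 and ref6, with standard errors of 0.77, 0.76 and 0.77 and adjusted p-values of 0.528, 0.497 and 0.999. Col-0 replicate 1 held a single rounded count of MLH3. Without it and ref6 replicate 1 the values were 0.56, 0.63 and 0.42.

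AT1G12790, annotated as a DNA ligase-like protein and listed with the crossover genes, stood at 3.43 and 1.47 CPM in Col-0, 1.74 and 2.56 in elf6, 0.86 and 1.89 in jmj13, with ref6 at 1.58 and 0.78. Its log2 fold change was -0.81 in jmj13 and -1.06 in ref6 against Col-0, and 0.64 in elf6 against jmj13, with standard errors of 0.63, 0.65 and 0.62. The libraries of jmj13 and ref6 overlapped with those of Col-0, and the jmj13 value was -0.12 without Col-0 replicate 1 and ref6 replicate 1. HEI10 (AT1G53490), a ligase whose dosage sets crossover number in Arabidopsis, stood at 3.77 and 2.59 CPM in Col-0, 0.87 and 2.56 in elf6, 1.87 and 2.96 in jmj13, with ref6 at 2.83 and 2.25. One elf6 library, replicate 1, was low, and the log2 fold change was -0.88 in elf6 and -0.39 in jmj13, with standard errors of 0.55 and 0.54. Without Col-0 replicate 1 and ref6 replicate 1 the values were -0.59 and -0.13, and the elf6 value ran from -1.85 without elf6 replicate 2 to -0.31 without elf6 replicate 1. The transcript of HEI10 shares 39.6% of its 50-base stretches with other genes, the most with AT1G53480. AT1G53480 and AT1G53500 overlap it on the other strand and AT1G07887 on the same strand. The sources do not say whether the counts told reads of the strands apart. MER3 (AT3G27730), a helicase, stood at 0 and 1.12 CPM in Col-0, 0.47 and 0.48 in elf6, 1.22 and 0.76 in jmj13, with ref6 at 1.02 and 0.23. It was -1.04 in elf6 against jmj13 with a standard error of 1.05. MUS81, a nuclease of the other crossover route, was at -0.05, 0.09 and -0.33 against Col-0. ZIP4 and SHOC1 had at most 11 and 13 counts in any library.

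Among genes of meiotic division, OSD1, an inhibitor of the anaphase-promoting complex that lets meiocytes enter the second division, was the most abundant. OSD1 (AT3G57860, chromosome 3, 21426285 to 21428340, 3 exons) stood at 6.29 and 5.44 CPM in Col-0, 8.05 and 6.95 in elf6, 9.26 and 6.67 in jmj13, with ref6 at 3.28 and 6.60. Both libraries of elf6 and jmj13 lay above both of Col-0, whereas ref6 held the lowest library and one above Col-0. The log2 fold change was 0.36 in elf6 (95% interval -0.45 to 1.17), 0.45 in jmj13 (-0.36 to 1.25) and -0.22 in ref6 (-1.05 to 0.60). TAM, a cyclin, was at -0.08, 0.21 and 0.20. SDS, a cyclin-like protein of early meiosis, had 6 to 23 counts, TDM1 1 to 12 and MMD1 0 to 5. Of the 34 genes, the libraries of the mutant did not overlap with those of Col-0 for 16 in elf6 (47.1%, beside 44.7% of all genes), 12 in jmj13 (35.3% beside 46.2%) and 9 in ref6 (26.5% beside 26.1%). Between the mutants it was 11 in elf6 against jmj13 (32.4% beside 48.1%), 9 in elf6 against ref6 (26.5% beside 45.4%) and 11 in jmj13 against ref6 (32.4% beside 41.7%).

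A list of 46 other genes with parts in meiosis, such as cohesins, anti-crossover helicases and repair factors, was examined beside them. Of the 44 tested, 0 were called in any of the 6 comparisons. Against Col-0, 30 lay above 0 in elf6 (beside 52.3% of all genes), 37 in jmj13 (beside 53.4%) and 32 in ref6 (beside 48%), with medians of 0.16, 0.39 and 0.19. In elf6 against jmj13 10 lay above 0 (beside 46.2%), with a median of -0.27. At an unadjusted p under 0.05 by edgeR's test, 6 were higher and 0 lower in jmj13 against Col-0, where 11.2% of all genes passed in either direction. In elf6 2 were higher and 0 lower, beside 12.4%, and in ref6 1 was higher and 0 lower, beside 4.67%. Those in jmj13 include BRCA1, a repair gene, at a log2 fold change of 1.07, and XRI1, which acts in meiosis and repair, at 1.02. BRCA1 was at 1.23 in elf6.

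The summed level of the 42 genes without ASK1 was 43.2 and 53.7 TPM in Col-0, 69.3 and 67.5 in elf6, 94.1 and 79.3 in jmj13, with ref6 at 38.8 and 64.9. Both jmj13 libraries were the highest of the 8, and Col-0 replicate 1 and ref6 replicate 1 were the lowest. The 12 markers of dividing cells had the same libraries at the ends, with 272 and 344 TPM in Col-0, 387 and 389 in elf6, 464 and 449 in jmj13, with ref6 at 292 and 391. In jmj13 against Col-0 9 of these 12 lay above 0 after TMM scaling (beside 53.4% of all genes), with a median of 0.30. The 11 tapetum markers, from the anther layer that feeds the meiocytes, summed to 1516 to 1580 TPM in Col-0, 1285 to 1689 in elf6, 1013 to 1035 in jmj13 and 818 to 1563 in ref6. Of the 10 tested, 1 lay above 0 against Col-0 in each mutant, beside 52.3% of all genes in elf6, 53.4% in jmj13 and 48% in ref6. The medians were -0.11 in elf6, -0.70 in jmj13 and -0.30 in ref6. DYT1, an early tapetum regulator, was at 0 in 5 of 8 libraries.

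The 6 green tissue markers took 62813 to 78481 TPM in Col-0, 57103 to 63011 in elf6, 54719 to 55981 in jmj13 and 59732 to 87442 in ref6. Their sum was highest in the 2 libraries that stood apart. The LHCB1 genes carried this, such as LHCB1-3 at 29122 and 35960 TPM there and 13876 to 16206 elsewhere. RBCS1A and LHCA1 were highest in other libraries, and RBCS3B was lowest in ref6 replicate 1. The 10 late pollen markers ranged from 380 to 1036 TPM in Col-0, 370 to 583 in elf6, 521 to 920 in jmj13 and 296 to 596 in ref6. The 6 ovule and carpel markers summed to 89.4 to 168 TPM in Col-0, 142 to 175 in elf6, 153 to 166 in jmj13 and 83.3 to 113 in ref6. Of these 6, 1 lay above 0 in ref6 against Col-0 (beside 48% of all genes), with a median of -0.84. At an unadjusted p under 0.05 by edgeR's test 3 were lower there, where 4.67% of all genes passed in either direction. Against ref6, 5 lay above 0 in jmj13 (beside 52.9%, median 1.04) and 6 in elf6 (beside 51.3%, median 1.06). By the same test 4 were higher in each, beside 8.97% and 11.7% of all genes. The part of these markers in the values of the meiosis genes in either comparison was not tested. No defining marker of the floral organs was at 0. On the TPM scale the summed meiosis genes were thus lowest where the sum of green tissue markers was highest. They were highest where the sum of markers of dividing cells was highest. Every library has the same total in TPM, so a larger share of a few abundant genes lowers all others. These sums were not scaled by TMM. The part of library composition, cell makeup and bud stage in the levels of the meiosis genes was not tested.

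**Figure D4:**
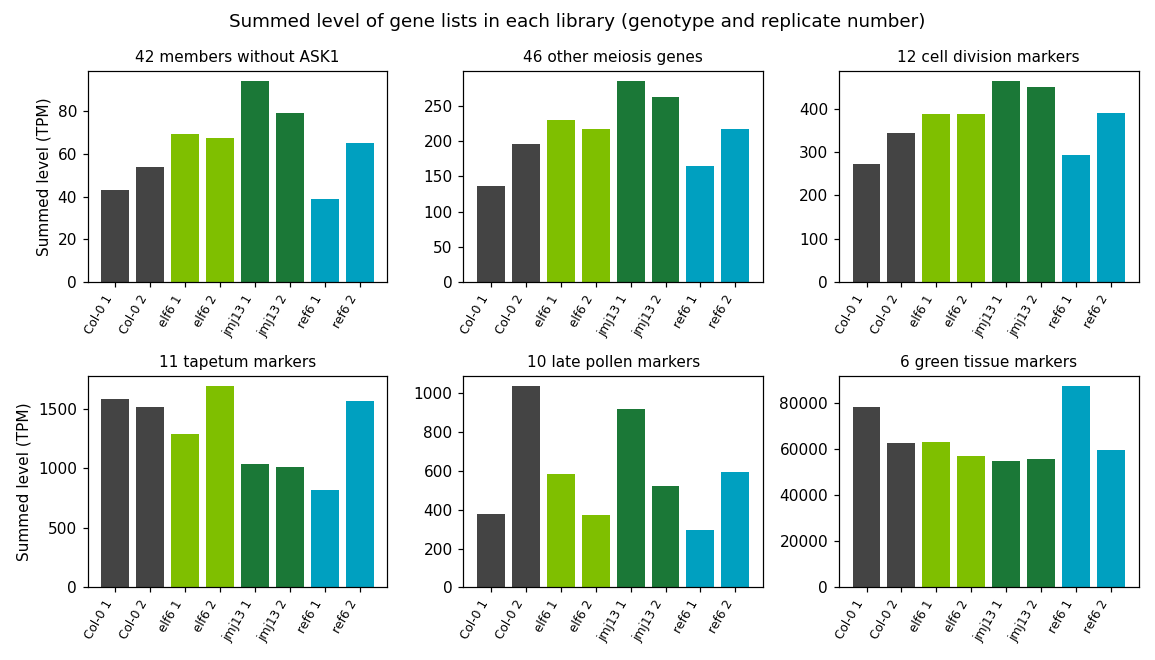
Summed TPM of 6 gene lists in each library, with bars from 0 and libraries named by genotype and replicate number. The sums of the 42 meiosis genes, the 46 other meiosis genes and the 12 cell division markers are highest in the jmj13 libraries. They are lowest in Col-0 replicate 1 or ref6 replicate 1, where the sum of the 6 green tissue markers is highest.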

How the data were processed

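Single-end RNA-seq after mRNA enrichment was analysed in 8 libraries. Each table that the authors deposited gives expected counts and FPKM by gene. The submitters' processing notes name Bowtie2, RSEM and TAIR10. The library protocol does not mark strand, and the annotation, filters and use of strand behind the counts are not given in the sources used here. Unlisted genes were taken as 0, and the deposited FPKM values were rescaled to TPM. Genotypes came from the labels.

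Expected counts were rounded, filtered by filterByExpr and scaled by TMM, and tested with edgeR 4.0.16 (R 4.3.3; glmQLFit and glmQLFTest) over all 8 libraries, with Benjamini-Hochberg adjustment over 19939 genes. The script was tested on simulated data. The study's NOISeq test was not used. Alternatives were DESeq2 1.42.0, limma 3.58.1 on log2(FPKM + 1) and log2(FPKM + 0.1), other scalings and filters, a replicate block and libraries left out. Where libraries were left out the filter was applied anew, so the tested genes could differ. For edgeR, a standard error is the size of the log2 fold change divided by the square root of its F statistic. Intervals were built from these standard errors. Both are approximate, and intervals cover only the spread between these libraries.

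Members and lists were chosen with earlier results of these data known. Values per library are given for SPO11-1, DMC1, REC8, ASY1, ZYP1A, MSH4 and OSD1, and for the 3 highest and 3 lowest fold changes in each comparison with Col-0 and in elf6 against jmj13. Of the 43 genes, 41 had their symbol in RefSeq (TAIR10.1) and the others are named by identifier. RefSeq gave coordinates and sequences, and 15 genes share a 50-base stretch with another gene. Some members entered every fit and count but are not reported here by name.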

Additional observations from a re-analysis of the deposited data

How the results depend on the processing

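No gene of the list was called under any alternative in any of the 6 comparisons, and the lowest adjusted p was 0.0809. At an unadjusted p under 0.05 the count rose to 7 at most, in jmj13 against Col-0. The distance of the list's median log2 fold change from that of all genes moved by more than 0.11 in 13 of 114 recomputed values. This is the SD between replicates for all genotypes together, and the Col-0 replicates were further apart. In elf6 against Col-0 it was 0.17 without Col-0 replicate 1 and ref6 replicate 1, where 38 genes of the list were tested. It was 0.11 where only genes averaging 50 reads or more were kept. With limma on log2(FPKM + 1), which compresses low values, it was 0.057 in jmj13 against Col-0, -0.094 in elf6 against jmj13 and 0.068 in jmj13 against ref6. Leaving out each library in turn gave -0.079 to 0.17 in elf6 against Col-0, 0.088 to 0.41 in jmj13 against Col-0, -0.11 to 0.11 in ref6 against Col-0, -0.35 to -0.12 in elf6 against jmj13, -0.071 to 0.15 in elf6 against ref6 and 0.14 to 0.34 in jmj13 against ref6. HEI10 in jmj13 against Col-0 turned to 0.076 with library size only, 0.051 with limma on log2(FPKM + 0.1) and 0.037 on log2(FPKM + 1). Without 1 library the log2 fold change ran from -1.44 to 0.37 for XRCC3 in elf6 against Col-0, from -1.29 to 3.57 for PRD2 in ref6 against Col-0, from -0.15 to 0.84 for PRD2 in elf6 against jmj13 and from -0.049 to 0.73 for MSH4 in elf6 against jmj13. The cause was not tested. Where a genotype was left with 1 library, that library was assumed to vary like the others.

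No label says that a replicate number marks a shared batch, so numbers were not used as pairs. Deviations of same-numbered libraries correlated across genes at 0.36 in Col-0 and ref6, 0.27 in elf6 and jmj13 and 0.02 to 0.09 in the other 4 pairs of genotypes. When replicate number was added to the fit (replicate block), 0 genes of the list were called in each comparison, and the distance of medians in jmj13 against Col-0 was 0.34. Counts were low: the 42 genes without ASK1 together held 905 to 1944 counts per library, and 2 libraries per genotype leave intervals of about 2-fold to either side.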

Other observations

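Among the 34 tested genes, after TMM scaling, jmj13 replicate 1 held the highest value of the 8 libraries 12 times and the lowest 0 times, and Col-0 replicate 1 held the lowest value 10 times and the highest 7 times. The log2 ratio of the replicates varied over the 34 genes with an SD of 0.97 (Col-0), 1.00 (ref6), 0.61 (elf6) and 0.62 (jmj13). TDM1 shares 31.3% of its 50-base stretches with other genes, the most with TUB9, a tubulin gene that overlaps it on the other strand. TUB9 had 342 to 729 counts per library, against 1 to 12 for TDM1.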
